A study of Mus musculus with 272 samples.

Results

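The genes described here are the enzymes of glycolysis and lactate handling named in a fixed list: the hexokinases Hk1 and Hk2, glucose-6-phosphate isomerase Gpi1, the phosphofructokinases Pfkl and Pfkp, the aldolase Aldoa, phosphoglycerate kinase Pgk1, the pyruvate kinase Pkm, and the lactate dehydrogenases Ldha and Ldhb. They were taken by symbol from a table of normalized expression, and all 10 were present among its 15854 symbols. The table covered mouse germinal vesicle (GV) oocytes, metaphase II (MII) oocytes, zygotes, 2-cell, 4-cell and 8-cell embryos, morulae and blastocysts. At each of the 8 stages, total transcriptomes were made from 4 pools of 20 oocytes or embryos. Ribosome fractions were made from 3 gradients of about 100 oocytes or embryos each, every gradient cut into 10 fractions that were sequenced one by one, which gave 32 transcriptome and 240 fraction libraries, all labelled as polyadenylated RNA. No genotype, treatment, strain or maternal age was given for the groups in the sources used here, and nothing there says that pools came from separate animals, so p-values measure the spread between these samples, which may be technical.

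Glycolysis breaks glucose down to pyruvate in the cytosol. Hexokinase traps glucose inside the cell, phosphofructokinase commits it to the pathway, and pyruvate kinase makes the pyruvate. Lactate dehydrogenase interconverts pyruvate and lactate as a tetramer of A subunits, encoded by Ldha, and B subunits, encoded by Ldhb, and the B subunit favours the use of lactate as a source of pyruvate. Oocytes and cleaving mouse embryos live on pyruvate and lactate and use little glucose, and glucose use rises as the embryo compacts and forms a blastocyst. In a gradient, mRNA free of ribosomes or bound by few of them runs with the light fractions and mRNA carrying many ribosomes with the heavy ones. Fraction 1 was taken as the lightest and fraction 10 as the heaviest.

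Expression was given in CPM, read counts scaled to the total of the library, which is relative to the other genes in a library, so a CPM change of one mRNA cannot be told apart from a change of the rest. In the pooled material, fewer cells of a type and less RNA per cell cannot be told apart either. Transcriptomes held between 11.2 and 24.3 M reads. Fractions held between 0.0102 and 43.2 M reads, the shallowest being fraction 1 of GV gradients A and B. The oocyte marker list fell from a summed 19906 to 22799 CPM in GV transcriptomes to 7.80 to 13.1 CPM in blastocysts, and the blastocyst lineage list stood at 67.4 to 84.5 CPM in GV oocytes and at 2676 to 3237 CPM in blastocysts. Of 12 cumulus and granulosa cell markers 4 were in the table, with a summed 6.02 to 68.9 CPM. Of 6 blood markers 2 were in the table, at 0 CPM in all GV, MII and zygote transcriptomes, a summed 33.3 to 53.2 CPM at the 2-cell stage, up to 159 CPM at the 4-cell stage and up to 3.13 CPM in blastocysts, a course whose part in the changes below was not tested. The members were listed at 0 in 43.0% of their 4-cell fraction values, against 8.00% in blastocysts, and in 37.0% of their 2-cell fraction values.

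The 250 bases before the annotated transcription starts of both lactate dehydrogenase genes are shown here because Ldhb was called lower and Ldha higher in blastocysts than in GV oocytes, although both fell from the 2-cell to the 4-cell stage. Ldha has one start at chr7:46845554-46845803 (plus strand) and another at chr7:46846832-46847081 (plus strand), and Ldhb one at chr6:142507958-142508207 (minus strand), where each range is the window printed 5′ to 3′ on the gene's strand, from RefSeq on GRCm38.p6. Capitals mark every match to ACGTG or its reverse complement CACGT, the core bound by basic helix-loop-helix factors that act on glycolytic genes, and overlapping matches are both counted.
Ldha, first start: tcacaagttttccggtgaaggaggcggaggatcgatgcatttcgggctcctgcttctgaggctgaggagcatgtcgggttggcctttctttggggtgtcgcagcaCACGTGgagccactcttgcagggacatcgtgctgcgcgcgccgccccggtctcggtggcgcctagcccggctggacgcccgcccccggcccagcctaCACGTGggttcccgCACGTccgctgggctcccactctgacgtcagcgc
Ldha, other start: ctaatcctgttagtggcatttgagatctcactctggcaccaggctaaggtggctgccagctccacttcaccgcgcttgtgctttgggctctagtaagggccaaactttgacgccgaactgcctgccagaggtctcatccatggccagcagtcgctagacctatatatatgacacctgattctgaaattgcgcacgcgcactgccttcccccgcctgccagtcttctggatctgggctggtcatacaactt
Ldhb: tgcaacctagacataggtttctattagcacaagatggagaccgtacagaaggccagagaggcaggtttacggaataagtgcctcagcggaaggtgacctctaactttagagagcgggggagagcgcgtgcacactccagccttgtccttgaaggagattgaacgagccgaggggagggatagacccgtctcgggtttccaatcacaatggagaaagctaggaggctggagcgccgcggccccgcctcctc
The first Ldha window held 5 matches, and the other Ldha window and the Ldhb window held 0. Among 32851 RefSeq windows of 250 bases, 16.6% held at least 1 such match. A match describes letters in a window and says nothing of binding, and the files do not tell which Ldha start was used.

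In the transcriptomes Ldhb was by far the most abundant member in the oocyte and nearly gone in the blastocyst. The 4 GV transcriptomes held 9192, 9599, 9261 and 9195 CPM (9312 ± 194, SD, n = 4). MII oocytes held 8175, 7791, 6795 and 5880.1 CPM, and zygotes 4345, 4576, 4127 and 4069 CPM. Each of these stages lay below the one before with no overlap, although the step from GV to MII did not pass the test and that from MII to zygote was under the size asked for (change -0.73). The test used throughout was limma on log2(CPM + 1), and a change was called where its Benjamini-Hochberg adjusted p over all genes was under 0.05 and its size at least 1 on that scale, which understates the change of genes with low values. From the zygote to the 2-cell embryo Ldhb fell by 1.19 (SE 0.25, limma adjusted p = 9.7e-05), to 2846, 1867, 1526 and 1532 CPM. The 4-cell libraries then held 49.8, 51.5, 23.6 and 33.2 CPM, which is 49.2-fold less by the means (limma change -5.60, adjusted p = 4.3e-21). In blastocysts 1.03, 2.86, 1.00 and 3.42 CPM were left, 9.44-fold less than in morulae and 4487-fold less than in GV oocytes, with no overlap at either step. Means over the fractions of a gradient followed another course (SD, n = 3). Ldhb held 1387 ± 98.4 CPM there in GV oocytes, where Aldoa held 1454 ± 472 CPM. It held 6532 ± 1321 CPM in MII oocytes and 11045 ± 2669 CPM in zygotes. The 2-cell and 4-cell means were 2556 ± 535 and 1819.6 ± 247 CPM, and that of blastocysts 13.4 ± 1.13 CPM.

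In the transcriptomes Ldha, which encodes the A subunit, was near the limit of detection before the embryo's own genome is transcribed. GV oocytes held 0.789, 0.655, 0.227 and 1.05 CPM, and zygotes 0.0986, 0, 0.117 and 0 CPM. At the 2-cell stage the libraries held 39.1, 28.1, 28.5 and 30.8 CPM, a rise of 4.94 on the log2 scale (SE 0.22, limma adjusted p = 5e-20). The level then came down in steps without overlap, to 6.91, 7.41, 7.93 and 6.68 CPM at the 4-cell stage (change -1.98, adjusted p = 5.91e-10) and to 0.941, 1.35, 1.64 and 2.37 CPM at the 8-cell stage (change -1.70, adjusted p = 1.64e-05). Ldha was higher again in morulae, at 6.08, 13.0, 7.42 and 5.98 CPM, and in blastocysts, at 23.5, 20.8, 14.0 and 16.1 CPM. The step from 8-cell to morula was 1.79 (adjusted p = 1.92e-07), and that from morula to blastocyst 1.14 (adjusted p = 6.32e-05). Without replicate A the last step was 0.92, short of the size asked for, and edgeR on recovered reads gave 0.93 with an adjusted p of 0.0698. In the transcriptomes Ldha thus had 2 maxima, at the 2-cell and blastocyst stages, with the 2-cell libraries all above the blastocyst ones. The course differed in the means over the fractions of a gradient (SD, n = 3). There Ldha held 4.75 ± 1.49 CPM in GV oocytes and 0.280 ± 0.188 CPM in zygotes. It held 34.2 ± 14.8 CPM at the 2-cell stage, 16.1 ± 20.4 CPM at the 4-cell stage and 42.4 ± 28.7 CPM at the 8-cell stage. Morulae held 66.4 ± 12.5 CPM and blastocysts 133 ± 24.9 CPM, with every blastocyst gradient above every 2-cell one.

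Levels per kilobase of exon correct for length, but not for reads lost to or split with copies of a gene elsewhere in the genome. On that scale Ldha made up 0.00503% of the summed Ldha and Ldhb level in GV transcriptomes and 1.15% ± 0.201 (SD, n = 4) at the 2-cell stage. The share was 12.2% ± 4.67 at the 4-cell stage, 4.71% ± 2.95 at the 8-cell stage, 22.4% ± 7.39 in morulae and 86.1% ± 7.83 in blastocysts. In the 4 blastocyst pools it ranged from 76.4% to 94.0%. In the heavy fractions, 6 to 10, the share was 0.254% ± 0.133 in GV oocytes and 9.60% at the 8-cell stage. It was 93.7% ± 2.20 in morulae and 97.4% ± 1.29 in blastocysts (n = 3 gradients). The log2 ratio of Ldha to Ldhb moved by 6.13 between zygotes and 2-cell embryos and by 3.62 on to the 4-cell stage. It moved by 2.08 between 8-cell embryos and morulae and by 3.94 on to the blastocyst. A two-sided exact permutation test of 4 pools against 4 cannot go below p = 0.0286, which these 4 ratios reached, and over the 21 ratio comparisons made the adjusted p was 0.06, so none passed.

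**Figure D1:**
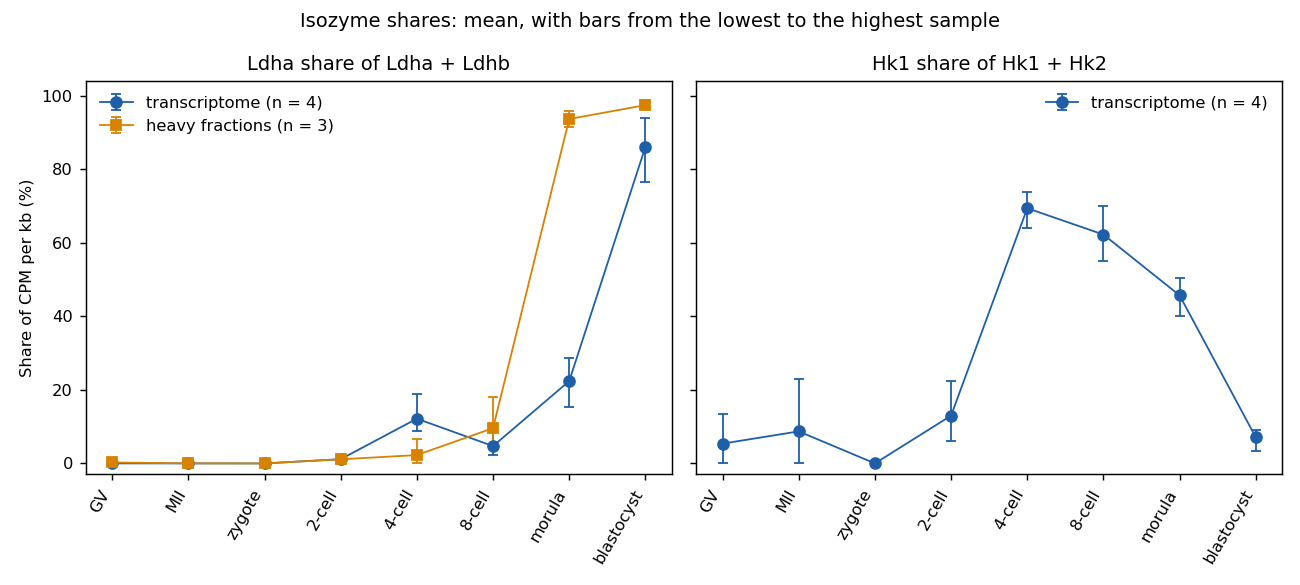
Share of Ldha in the lactate dehydrogenase pair (left; 4 transcriptomes and the heavy fractions of 3 gradients) and of Hk1 in the hexokinase pair (right; 4 transcriptomes), in percent of the summed CPM per kilobase, against stage, with points for the mean and bars from the lowest to the highest sample. The Ldha share was 0.00503% in GV and 86.1% in blastocyst transcriptomes and 97.4% in blastocyst heavy fractions, while the mean Hk1 share was highest at the 4-cell stage and 7.10% in blastocysts.

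Both hexokinase mRNAs were low in oocytes and zygotes, and Hk1 was highest at the 4-cell to morula stages and Hk2 in blastocysts. Hk1 was listed at 0 in all 4 zygote transcriptomes and held 1.67, 0.843, 1.86 and 0.515 CPM at the 2-cell stage. At the 4-cell stage it stood at 28.6, 35.5, 35.9 and 30.0 CPM, a rise of 3.95 (limma adjusted p = 6.72e-18). It stayed in the range of 23.0 to 49.3 CPM through the 8-cell stage and the morula, and fell by 1.11 to 14.1, 16.6, 12.1 and 23.2 CPM in blastocysts (adjusted p = 9.27e-05), all below the morula libraries. The earlier 2-cell step of Hk1, 1.10, was short of the size asked for without 2-cell library E (1.00) or G (0.97).

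Hk2, the insulin-responsive and inducible hexokinase, was higher at every stage after the zygote than at the one before. It held 1.92, 1.75, 2.74 and 2.22 CPM in zygotes and 11.0, 10.4, 7.45 and 9.13 CPM in 2-cell embryos, a rise of 1.73 (SE 0.20, limma adjusted p = 1.83e-09). Means of 16.5, 26.8 and 49.4 CPM followed at the 4-cell, 8-cell and morula stages, steps of 0.74, 0.66 and 0.87 that were under the size asked for. Blastocysts held 222, 197, 383 and 266 CPM, all above every morula library (change 2.37, adjusted p = 3.16e-12), and 124-fold more than zygotes by the means. Hk1 made up 69.4% ± 3.99 of the hexokinase pair per kilobase at the 4-cell stage and 7.10% ± 2.60 in blastocysts (SD, n = 4). The log2 ratio of Hk1 to Hk2 moved by 3.21 from 2-cell to 4-cell and by -3.48 from morula to blastocyst (exact permutation p = 0.0286, adjusted p = 0.06 for both).

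In the transcriptomes Gpi1, Aldoa and Pkm shared a course: high in GV oocytes, low in MII oocytes, and high again in blastocysts. In the fraction means given below, Gpi1 and Pkm were lower in blastocysts than in GV oocytes. Aldoa, which splits fructose bisphosphate, held 113, 127, 114 and 117 CPM in GV oocytes and 2.76, 3.07, 2.20 and 2.27 CPM in MII oocytes. That is a 45.7-fold lower mean (limma change -5.06, SE 0.17, adjusted p = 4.9e-24). Zygotes were higher again, at 12.4, 18.4, 17.7 and 16.1 CPM (change 2.26, adjusted p = 9.84e-13), and so were 2-cell embryos, at 107, 61.5, 74.8 and 65.1 CPM (change 2.17, adjusted p = 1.89e-13). From the 2-cell to the 4-cell stage the change of Aldoa was 0.73 (adjusted p = 0.000198), under the size asked for, and from there to the 8-cell stage it did not pass the test (change -0.17, adjusted p = 0.594). It then rose by 1.47 to 353, 342, 251 and 307 CPM in morulae (adjusted p = 4.01e-08) and by 1.49 to 1000.4, 888, 922 and 704 CPM in blastocysts (adjusted p = 4.51e-09), 7.46-fold the GV mean.

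Gpi1, which turns glucose 6-phosphate into fructose 6-phosphate, held 60.9, 60.8, 57.3 and 57.8 CPM in GV oocytes and 2.67, 3.85, 1.64 and 1.95 CPM in MII oocytes, 23.4-fold less (change -4.13, limma adjusted p = 2.99e-18). It rose by 2.03 from zygote to 2-cell, where 3 libraries held 16.8 to 19.5 CPM and library E held 36.5 CPM (adjusted p = 6.21e-10). Blastocysts held 161, 107, 153 and 103 CPM against 34.6 to 52.0 CPM in morulae (change 1.58, adjusted p = 2.35e-07). Across the 32 transcriptomes Gpi1 and Aldoa had the highest Pearson correlation of any member pair on the log2(CPM + 1) scale, 0.952, as a description of libraries that share stages.

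Pkm, whose product makes pyruvate, held 134, 152, 110.4 and 159 CPM in GV oocytes and 17.8, 15.2, 14.1 and 16.4 CPM in MII oocytes, 8.74-fold less (change -3.04, limma adjusted p = 1.84e-13). Its 2-cell libraries held 69.7, 28.8, 38.2 and 44.0 CPM. The lowest mean came at the 8-cell stage, with 7.47, 10.6, 15.8 and 8.31 CPM. The fall from 2-cell to 4-cell, -1.21, was short of the size asked for without 2-cell library E (-0.98), and the rise from 8-cell to morula, 1.06, was short of it without replicate A (0.73) or D (0.95). Blastocysts held 245, 165, 225 and 195 CPM, 8.94-fold the morula mean and without overlap with it (change 3.16, adjusted p = 4.19e-13), the largest rise of any member at that step.

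Pgk1 and the phosphofructokinases kept within a narrower range. Pgk1, which makes the first ATP of the pathway, held 65.1, 46.5, 51.9 and 47.5 CPM at the 2-cell stage and 17.3, 11.0, 9.75 and 22.0 CPM at the 4-cell stage (change -1.80, limma adjusted p = 2.52e-08). Its GV and blastocyst means, 34.1 ± 2.56 and 45.0 ± 14.5 CPM, overlapped and did not pass the test (change 0.35, adjusted p = 0.181). Pfkp held 16.3, 14.0, 16.3 and 18.2 CPM in GV oocytes and 3.56, 1.85, 3.92 and 2.81 CPM in blastocysts, a fall of 2.12. Pfkl, the liver-type subunit, held 1.58, 1.82, 1.97 and 1.79 CPM in GV oocytes and 9.64, 8.46, 10.9 and 9.40 CPM in blastocysts, a rise of 1.92. Per kilobase Pfkp was the higher of the pair in GV oocytes and Pfkl in blastocysts, with neither above 18.2 CPM in any transcriptome. The rise of Pfkl from morula to blastocyst, 1.09, was short of the size asked for without replicate C (0.92) or D (0.98).

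**Figure D2:**
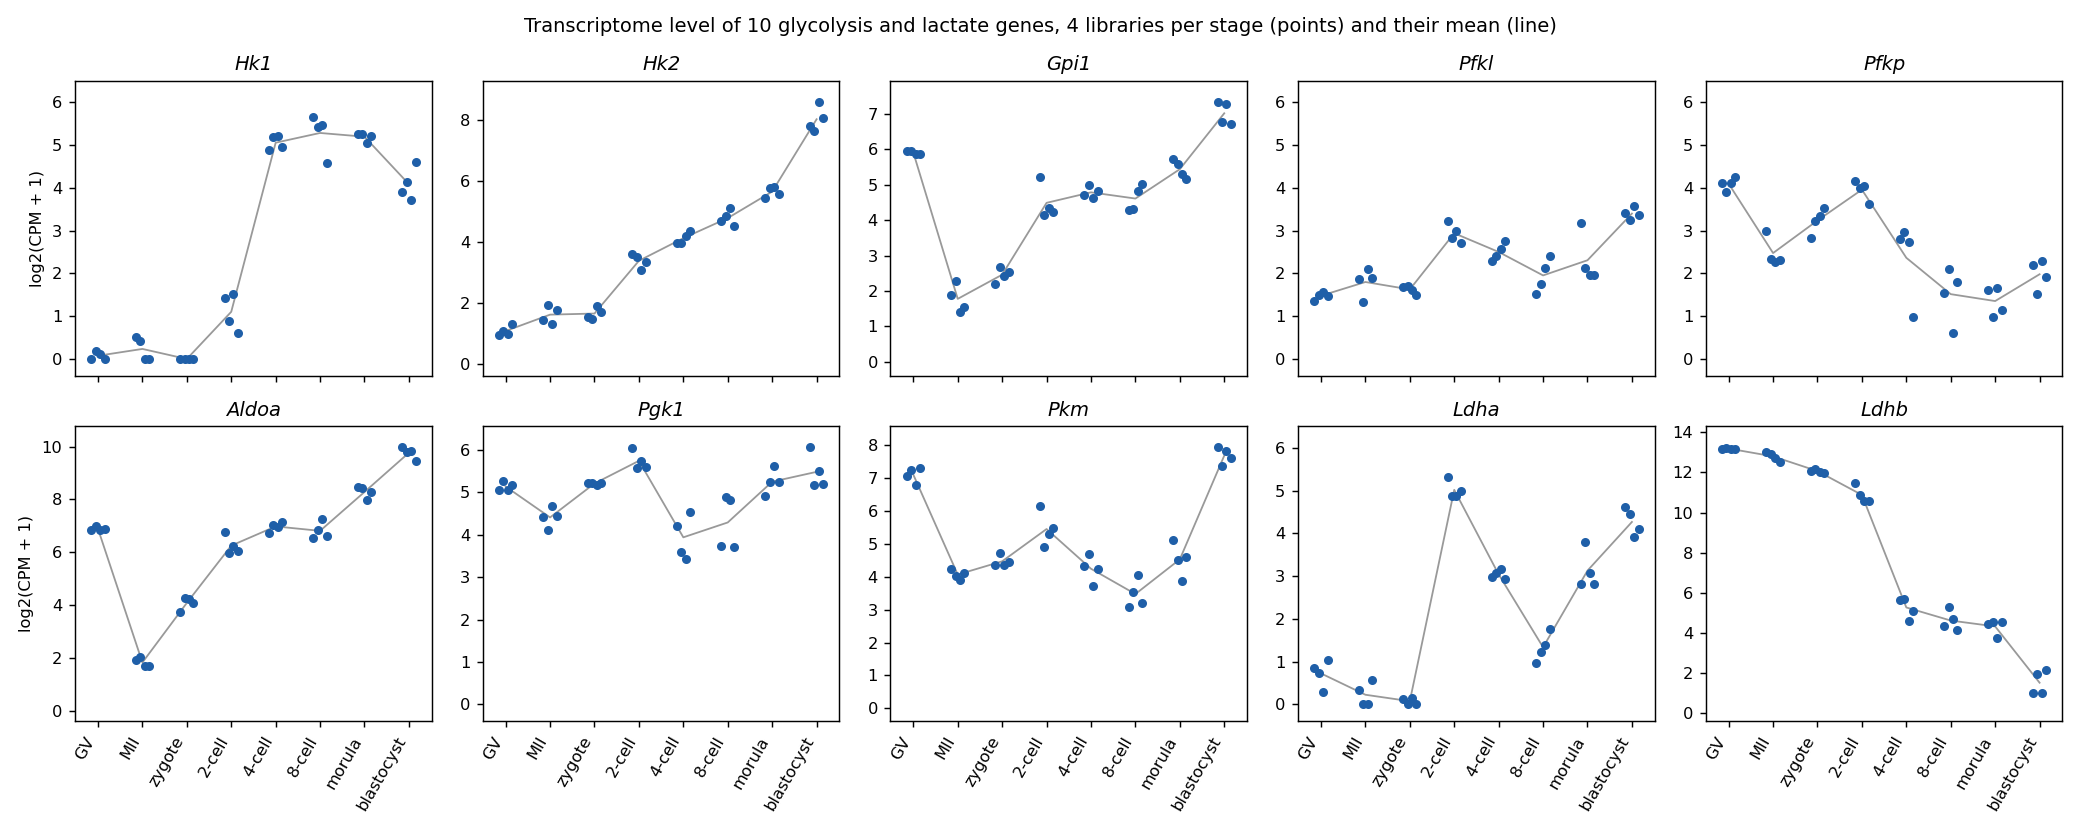
Level of each of the 10 genes on the log2(CPM + 1) scale in the 32 transcriptomes against stage, with a point for each pool of 20 oocytes or embryos and a line through the stage means. Ldhb goes from 9312 CPM in GV oocytes to 2.08 CPM in blastocysts, Aldoa, Gpi1 and Pkm drop in MII oocytes, and Hk2 climbs to 267 CPM.

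The members called at each step are given beside the share of all genes called. From GV to MII oocytes 4 of 10 members were called, all lower, where 34.5% of the 14642 genes tested were called and 25.3% were called lower. From MII to zygote 1 was called, Aldoa (10.3% of all genes), and from zygote to 2-cell 7 were called, 6 of them higher (33.9% of all genes, 25.2% higher). From 2-cell to 4-cell 6 were called, 5 of them lower, beside 64.8% of all genes and 32.9% lower, and from 4-cell to 8-cell 1 was called, Ldha, beside 2.60%. From 8-cell to morula Ldha, Aldoa and Pkm were called higher (11.9% of all genes, 8.18% higher). From morula to blastocyst 8 were called, 6 higher and 2 lower, beside 26.8% of all genes (18.8% higher and 7.97% lower), and the members' median change was 1.12 against 0.16 over all genes. Between GV oocytes and blastocysts 8 were called, 6 of them higher, beside 69.1% of all genes and 38.2% higher. Between zygotes and blastocysts 9 were called, 7 of them higher, beside 71.5% and 44.4% higher. By limma on CPM, the share of members called was near that of all genes from GV to MII, MII to zygote and 2-cell to 4-cell. It was higher from zygote to 2-cell, 8-cell to morula and morula to blastocyst, and from 4-cell to 8-cell by 1 member. Over both longer spans most genes were called, and the 8 and 9 members called were close to the shares of all genes, 69.1% and 71.5%. A share of 10 members moves much with 1 call, and these shares were not compared by a test.

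Quantile normalization, which forces the same distribution on every library, moved the median change of all genes by 0.27 from GV to MII and by -0.45 from zygote to 2-cell, so that directions at those steps depend on scaling for genes near the threshold. From GV to MII the share of calls that were higher was 26.4% by CPM and 55.6% by quantile normalization. Aldoa, Gpi1 and Pkm were lower in MII oocytes under both. Ldhb was called lower there by quantile normalization alone (-1.59), Pfkp was no longer called (-0.84), and Hk2 (1.22) and Pfkl (1.04) were called higher. From zygote to 2-cell the calls of Ldhb (-0.54, adjusted p = 0.0585), Hk1 (0.60) and Pfkl (0.55) ended with quantile normalization. So did those of Pkm from 8-cell to morula (0.88) and of Pfkl (0.60) and Ldha (0.74) from morula to blastocyst, a step at which 6 members were called by quantile normalization and 6 by edgeR.

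With the same limit on reads from gene copies, the members were ordered by level per kilobase of exon. In GV transcriptomes Ldhb stood at 7141 CPM per kb, then Pkm at 53.3, Aldoa at 45.9, Gpi1 at 20.5, Pgk1 at 18.7 and Pfkp at 3.77, with Pfkl, Ldha, Hk2 and Hk1 below 1. In blastocysts Aldoa led at 343 ± 49.0 CPM per kb (SD, n = 4), followed by Pkm at 79.9 ± 13.4, Hk2 at 47.6 ± 14.7, Gpi1 at 45.5 ± 10.5 and Pgk1 at 24.7 ± 7.92. Hk2 and Gpi1 did not differ beyond their spread. Ldha stood at 9.81 ± 2.29, Hk1 at 3.40 ± 0.997, Pfkl at 2.57 ± 0.268, Ldhb at 1.59 ± 0.956 and Pfkp at 0.706 ± 0.213, where Hk1 and Pfkl lay within 1 SD of each other, as did Pfkl and Ldhb within their summed spread.

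For several of these mRNAs the relative levels along the gradient differed between the oocyte and the blastocyst. CPM in a fraction tells how an mRNA stood against the other mRNAs of that fraction. The amount of RNA in the fractions was not taken into account. Heavy and light levels, peaks and mean fractions therefore do not tell how the molecules of an mRNA were spread over the gradient. Heavy and light levels are means of the CPM over fractions 6 to 10 and 1 to 5 of a gradient, and their difference was tested over the 3 gradients of a stage. Aldoa in GV gradients A, B and C held 594, 441 and 432 CPM in the heavy fractions and 2821, 1377 and 3056 CPM in the light ones, a difference of -2.23 (SE 0.28, limma adjusted p = 8.85e-06). In blastocysts the heavy fractions held 2694, 2607 and 2718 CPM and the light ones 1266, 1293 and 1388 CPM, a difference of 1.02 (adjusted p = 0.00105), which came to 0.99 without gradient A. It came to 0.98 with quantile normalization and to 0.92 with light fractions 2 to 5. Without the weights per stage its limma adjusted p was 0.392. The heavy and light values did not overlap at either stage, and they stood in opposite order. The difference between the stages, a contrast chosen after the data were seen, was 3.26 (SE 0.37, adjusted p = 7.49e-08). Averaged over gradients, Aldoa peaked in fraction 2 in GV oocytes, at 7750.3 CPM against 373 CPM in fraction 10. In blastocysts it peaked in fraction 10, at 3772 CPM against 919.8 CPM in fraction 1, and these peaks were in the same fraction in all 3 gradients.

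The CPM-weighted mean fraction of Aldoa was 3.32 ± 0.40 (SD, n = 3) in GV oocytes, 3.62 ± 0.14 in MII oocytes and 3.59 ± 0.20 in zygotes. It was 4.14 ± 0.30, 4.78 ± 0.60 and 5.66 ± 1.02 at the 2-, 4- and 8-cell stages, 6.42 ± 0.25 in morulae and 6.71 ± 0.07 in blastocysts. The median over all genes was 5.74 in GV oocytes and 5.62 in blastocysts, so Aldoa went from below it to above it.

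Gpi1 and Pkm were both called lower in the heavy fractions of zygotes. Gpi1 in zygotes held 125, 153 and 95.5 CPM in the heavy fractions and 537, 344 and 449 CPM in the light ones (difference -1.83, limma adjusted p = 0.00179), and it was also called lower in the heavy fractions of MII oocytes (-1.77, adjusted p = 0.00158). Without zygote gradient A its zygote difference had an adjusted p of 0.0681. Pkm in zygotes differed by -1.17 (adjusted p = 0.00742), and by -0.80 without gradient C, and it was not called in GV oocytes (-0.33, adjusted p = 0.693) or MII oocytes (-0.57, adjusted p = 0.216). In blastocysts Pkm held 668, 746 and 723 CPM in the heavy fractions and 247, 199.6 and 243 CPM in the light ones, a difference of 1.63 (adjusted p = 3.66e-06), with its peak in fraction 10 at 1669 CPM. Pkm differed between blastocysts and GV oocytes by 1.97 (adjusted p = 0.000502). Gpi1 differed by 1.61 (adjusted p = 0.0323), and that call was lost on leaving out gradient A, B or C.

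Ldhb went the other way. In MII oocytes its heavy fractions held 7774, 10282 and 6136 CPM and its light ones 4727, 5660.4 and 4612 CPM, higher in heavy in 3 of 3 gradients without overlap but not past the test (0.66, limma adjusted p = 0.0878). In zygotes the light fractions were the higher, at 12746, 16561 and 12607 CPM against 8753, 11136 and 4464 CPM, a difference of -0.87 that was under the size asked for. At the 8-cell stage the heavy fractions held 173, 170.3 and 279.6 CPM and the light ones 1153, 737 and 1475 CPM (-2.41, adjusted p = 0.00185, and 0.0549 without gradient B). In morulae they held 3.25, 4.82 and 4.75 CPM against 30.0, 38.2 and 47.9 CPM (-2.90, adjusted p = 3.85e-08), and in blastocysts 1.84, 3.62 and 5.28 CPM against 27.5, 21.5 and 20.6 CPM (-2.46, SE 0.22, adjusted p = 4.49e-11). The heavy and light values of Ldhb did not overlap at these 3 stages. Its mean fraction was 6.35 ± 0.18 in MII oocytes, 4.76 ± 0.38 in zygotes, 3.88 ± 0.11 at the 8-cell stage and 3.19 ± 0.43 in blastocysts, and the blastocyst difference was lower than the GV one by 2.70 (adjusted p = 8.5e-07).

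In the blastocyst the CPM of Ldha and of Hk2 peaked at opposite ends of the gradient. Ldha held 236, 174 and 205 CPM in the heavy fractions and 77.9, 40.4 and 67.0 CPM in the light ones (difference 1.76, limma adjusted p = 0.00479, and 0.0557 without gradient A), with its peak in fraction 10 at 377 CPM. Hk2 held 22.5, 12.8 and 36.9 CPM in the heavy fractions and 87.2, 56.4 and 91.1 CPM in the light ones (difference -1.75, adjusted p = 9.64e-05), with its peak in fraction 1 at 137 CPM. Pfkl held 48.1, 69.7 and 58.9 CPM against 10.9, 22.0 and 10.6 CPM (difference 2.01, adjusted p = 0.0149), a call that was lost without gradient A or C. Hk1 held 10.2, 2.66 and 4.20 CPM against 8.68, 26.7 and 15.5 CPM, overlapping between heavy and light. Its call (-1.46, adjusted p = 0.0296) was lost without gradient B or C.

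**Figure D3:**
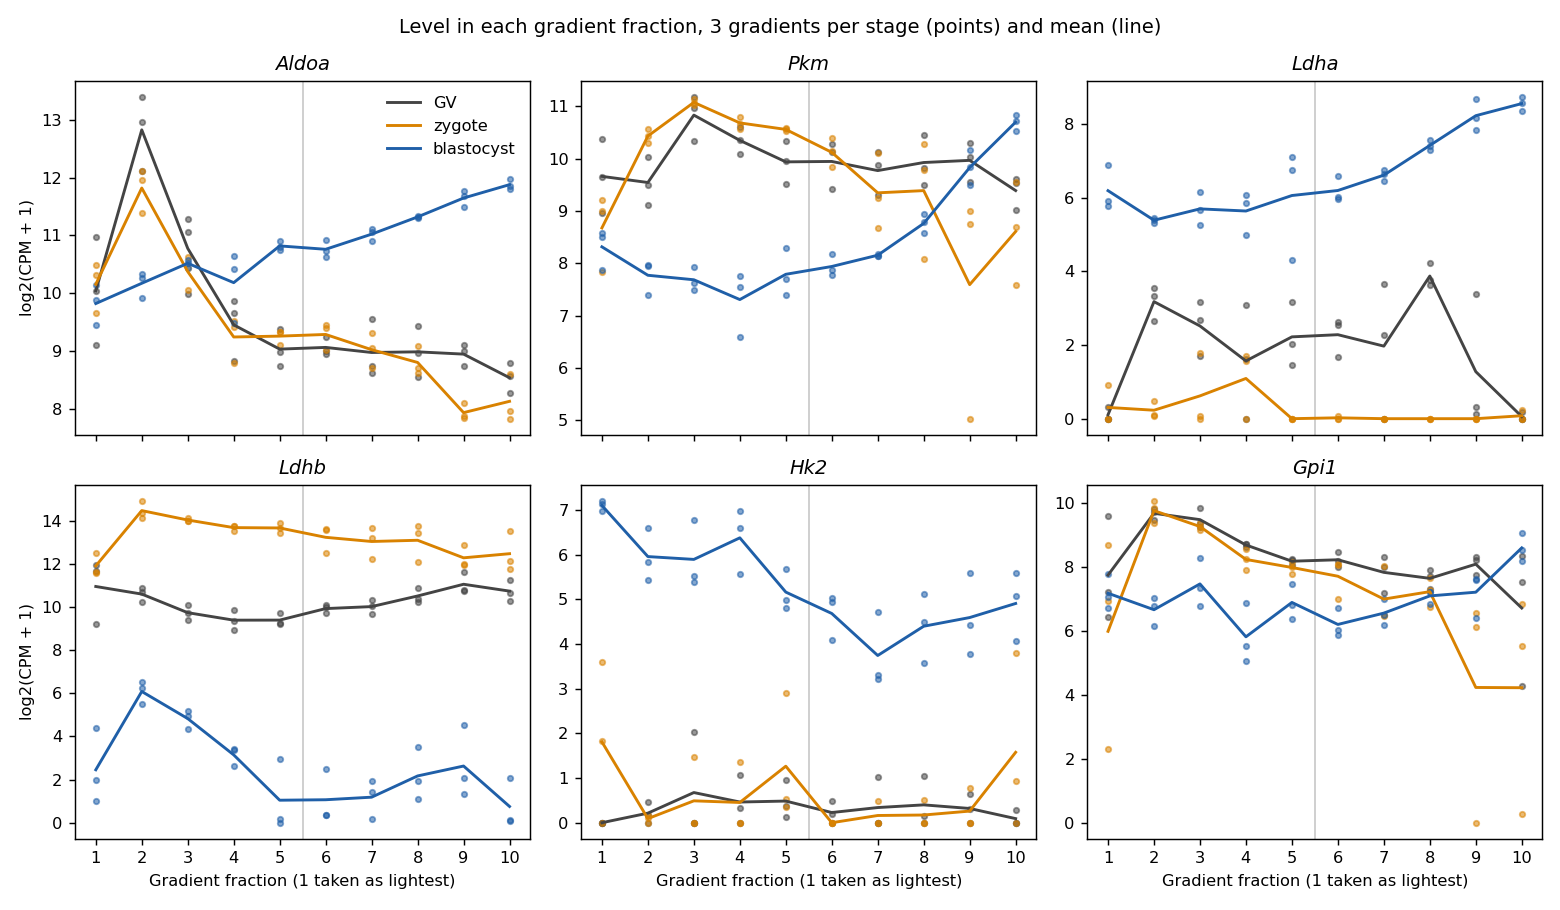
Level on the log2(CPM + 1) scale of Aldoa, Pkm, Ldha, Ldhb, Hk2 and Gpi1 in fractions 1 to 10 (1 taken as lightest) in GV oocytes, zygotes and blastocysts, with a point for each of 3 gradients, a line for their mean and a vertical line between the light and heavy fractions. In GV oocytes Aldoa peaked in fraction 2 and in blastocysts in fraction 10, while blastocyst Ldhb peaked in fraction 2 and blastocyst Hk2 in fraction 1.

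**Figure D4:**
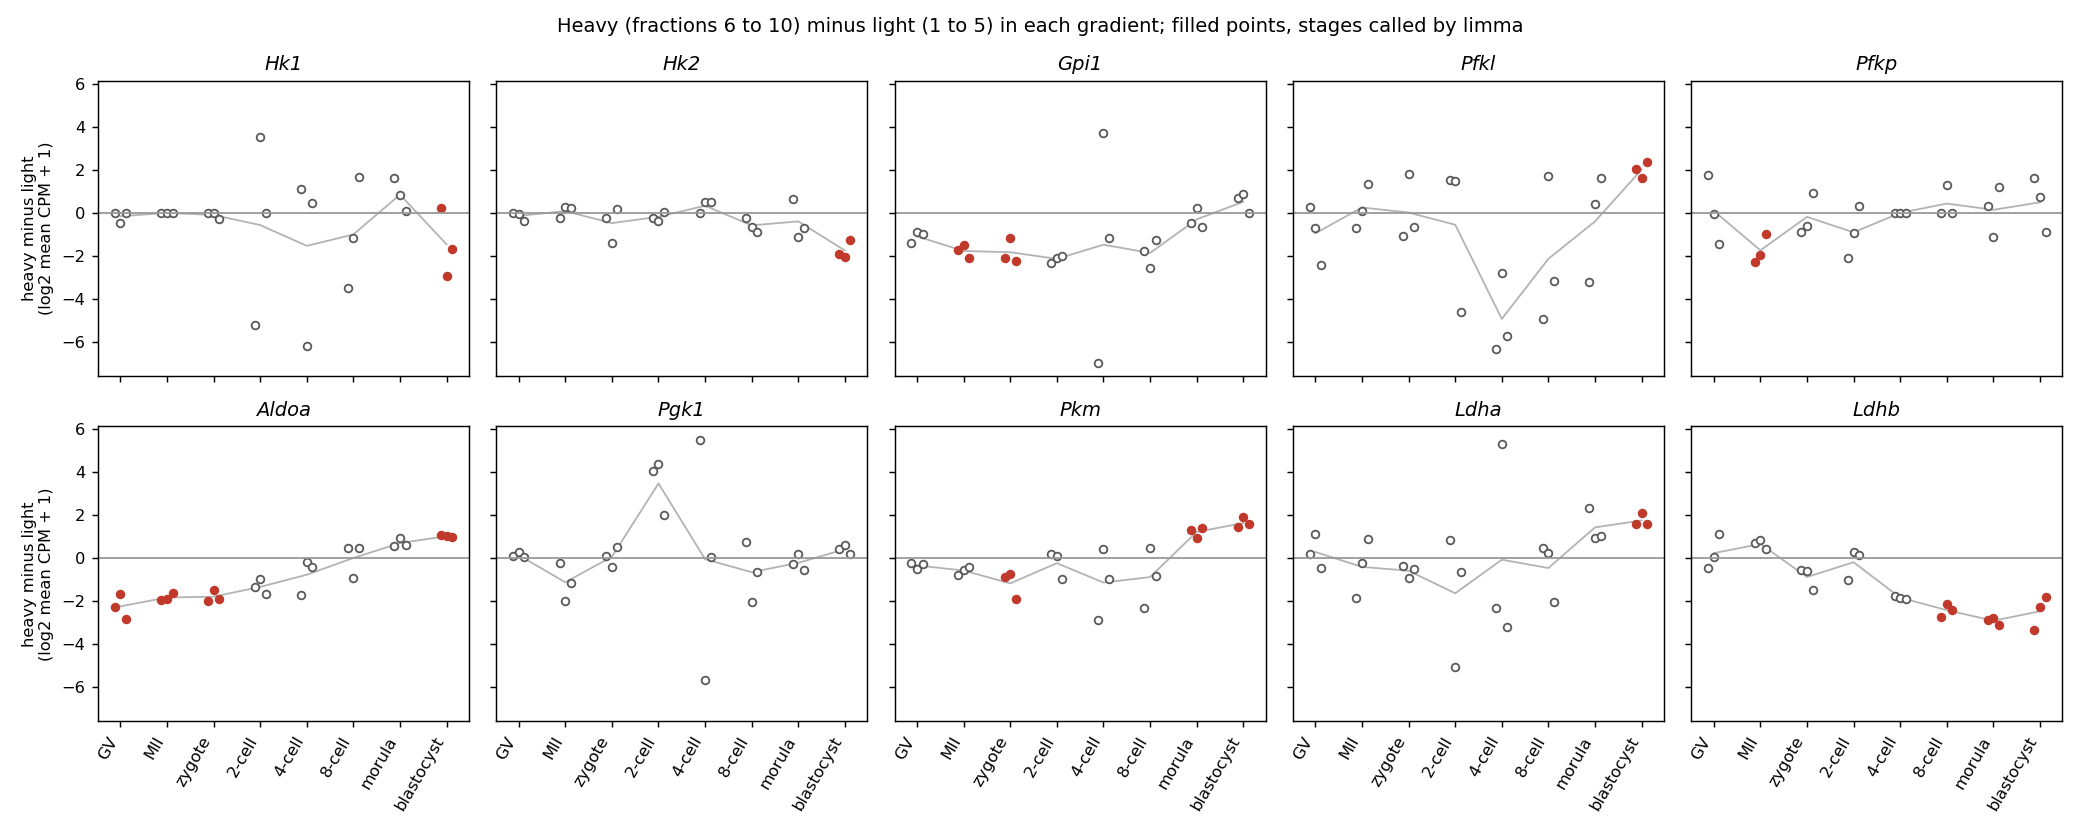
Heavy minus light level, as the difference of log2(mean CPM + 1), for each of the 10 genes against stage, with a point for each of the 3 gradients, a line through their means and filled points at stages called by limma. Aldoa lay below 0 in all oocyte and zygote gradients and above 0 in all blastocyst gradients, and 7 genes were called in blastocysts.

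By stage, the members called between heavy and light fractions were 1 in GV oocytes, Aldoa, beside 4.11% of the 15172 genes tested. There were 3 in MII oocytes, Aldoa, Gpi1 and Pfkp (15.2% of all genes, 6.33% lower), and 3 in zygotes (15.0% of all genes, 5.06% lower), all lower in the heavy fractions. At the 2-cell and 4-cell stages limma called 0 members, beside 3.53% and 0.817% of all genes, with 3 and 2 members under an unadjusted p of 0.05. At the 8-cell stage Ldhb alone was called (5.11% of all genes), and in morulae Ldhb lower and Pkm higher (11.4%). In blastocysts 7 were called, 4 higher and 3 lower, beside 17.4% of all genes (7.24% higher and 10.1% lower). Between blastocysts and GV oocytes the difference itself was called for 6 members, 4 of them higher, beside 14.9% of all genes and 4.52% higher. Leaving out 1 gradient ended the calls of Pfkp in MII oocytes (A or B), Pkm in morulae (B or C), and the stage differences of Hk2 (A or B) and Pfkl (any of the 3). With the light level taken over fractions 2 to 5, which leaves out the shallow GV fraction 1, 2 members were called in GV oocytes and 4 in blastocysts. Without the weights per stage, the blastocyst calls of Aldoa, Ldha, Pfkl, Hk1 and Hk2 ended, leaving Pkm and Ldhb. The calls of Gpi1 and Pfkp in MII oocytes, Gpi1 and Pkm in zygotes and Pkm in morulae also ended. So did the stage differences of Gpi1, Pfkl, Pkm and Hk2.

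Levels within the heavy fractions changed in their own way at 2 steps. Ldhb rose from GV to MII oocytes, from 1222, 1295 and 1966 CPM to 7774, 10282 and 6136 CPM (change 2.43, SE 0.34, limma adjusted p = 2.4e-05), while its transcriptome level was lower. In the same step Aldoa (-2.27), Gpi1 (-1.62), Pfkp (-2.44) and Pkm (-1.10) fell, so that 5 members were called beside 17.8% of all genes. Gpi1, Pfkp and Pkm each lost that call on leaving out a gradient, B for Gpi1 and A or B for Pfkp and Pkm, and also without weights or by edgeR. From the 8-cell stage to the morula Ldhb fell by 5.28 in the heavy fractions (SE 0.49, adjusted p = 2.92e-07), where Hk2 (2.65), Pkm (2.49) and Aldoa (2.02) rose, 4 members beside 10.6% of all genes, 6.73% higher. Hk2 lost its call without any 1 of the gradients and Aldoa without gradient B.

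Of the other steps, that from morula to blastocyst had 4 members called in the heavy fractions, and the rest had fewer. Aldoa rose from MII to zygote (2.09, adjusted p = 0.000345, 6.15% of all genes), with an adjusted p of 0.052 without weights and 0.166 by edgeR. From zygote to 2-cell limma called 0 members, 3 under an unadjusted p of 0.05, where edgeR called 3 and 11.6% of all genes were called. From 2-cell to 4-cell Pgk1 (-4.49), Gpi1 (-3.42) and Pkm (-2.41) fell, beside 18.5% of all genes and 10.9% lower, the Gpi1 call being lost without gradient A or B, the Pgk1 call without B or C and the Pkm call without any 1 gradient. From 4-cell to 8-cell limma called 0, 1 under an unadjusted p of 0.05, and edgeR 2 (0.482% of all genes). From morula to blastocyst Gpi1 (1.50), Pfkl (3.02), Pgk1 (1.66) and Pkm (1.61) rose, beside 3.44% of all genes and 1.81% higher, and of these only Pkm kept its call on leaving out any 1 gradient. Without weights, or by edgeR, 0 of the 4 were called.

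The change in the heavy fractions was then set against the change in the transcriptome in one model. From GV to MII it exceeded the transcriptome change by 2.82 for Ldhb (SE 0.47, limma adjusted p = 7.68e-06), 2.79 for Aldoa (adjusted p = 3.09e-08), 2.51 for Gpi1 (adjusted p = 5.92e-05) and 1.94 for Pkm (adjusted p = 0.0013), 4 members beside 16.6% of all genes and 12.3% higher. For Aldoa, Gpi1 and Pkm this means a smaller fall in the heavy fractions, and for Ldhb a rise against a lower transcriptome level. From 8-cell to morula Ldhb fell by 4.99 more in the heavy fractions than in the transcriptome (SE 0.70, adjusted p = 4.34e-06, 3.28% of all genes). From morula to blastocyst the difference was 2.54 for Ldhb (adjusted p = 0.000215), -1.80 for Hk2 and -1.55 for Pkm, beside 7.70% of all genes, and the Hk2 call was lost without gradient A or B and the Pkm call without gradient B or C or without weights. Limma called 0 members for the step from MII oocytes to zygotes (3.41% of all genes), with 0 under an unadjusted p of 0.05. It called 0 for zygotes against 2-cell embryos (8.66% of all genes), with 2 members under that unadjusted p, 0 for 2-cell against 4-cell embryos (2.57%), with 4, and 0 for 4-cell against 8-cell embryos (0.646%), with 1. edgeR was not run on this model, nor on heavy against light fractions.

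Some members stood at very different levels in the fractions and the transcriptome of the same stage. Averaged over 10 fractions, Aldoa in MII oocytes was at 240.2 CPM against 2.58 CPM in the transcriptome, 93.3-fold higher, and in blastocysts at 1994 CPM against 879 CPM, 2.27-fold higher. Gpi1 was 67.3-fold higher in the fractions in MII oocytes and 1.13-fold in blastocysts, and Pkm 34.4-fold and 2.27-fold. In the fractions Gpi1 held 374 ± 61.9 CPM in GV oocytes and 149 ± 35.6 CPM in blastocysts (SD, n = 3). Pkm held 1049 ± 224 and 471 ± 12.7 CPM there, both genes lower in blastocysts, and Aldoa 1454 ± 472 and 1994 ± 53.2 CPM. Ldhb in GV oocytes was 6.71-fold lower in the fractions, at 1387 ± 98.4 CPM (SD, n = 3). At the 4-cell stage Ldhb was 46.0-fold higher there, at 1819.6 ± 247 CPM, and in morulae its fraction and transcriptome means, 21.5 and 19.6 CPM, were close. Hk2 was lower in the fractions, by 12.7-fold at the 8-cell stage and 5.22-fold in blastocysts.

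Of all genes with at least 1 CPM in the transcriptome, 19.9% were at least 4-fold higher in the fractions on the log2(CPM + 1) scale in MII oocytes, 22.3% in zygotes and 3.23% in blastocysts. Fraction and transcriptome libraries were made separately, and what sets their levels apart was not tested. A mean over fractions is not weighted by the RNA in each fraction.

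**Figure D5:**
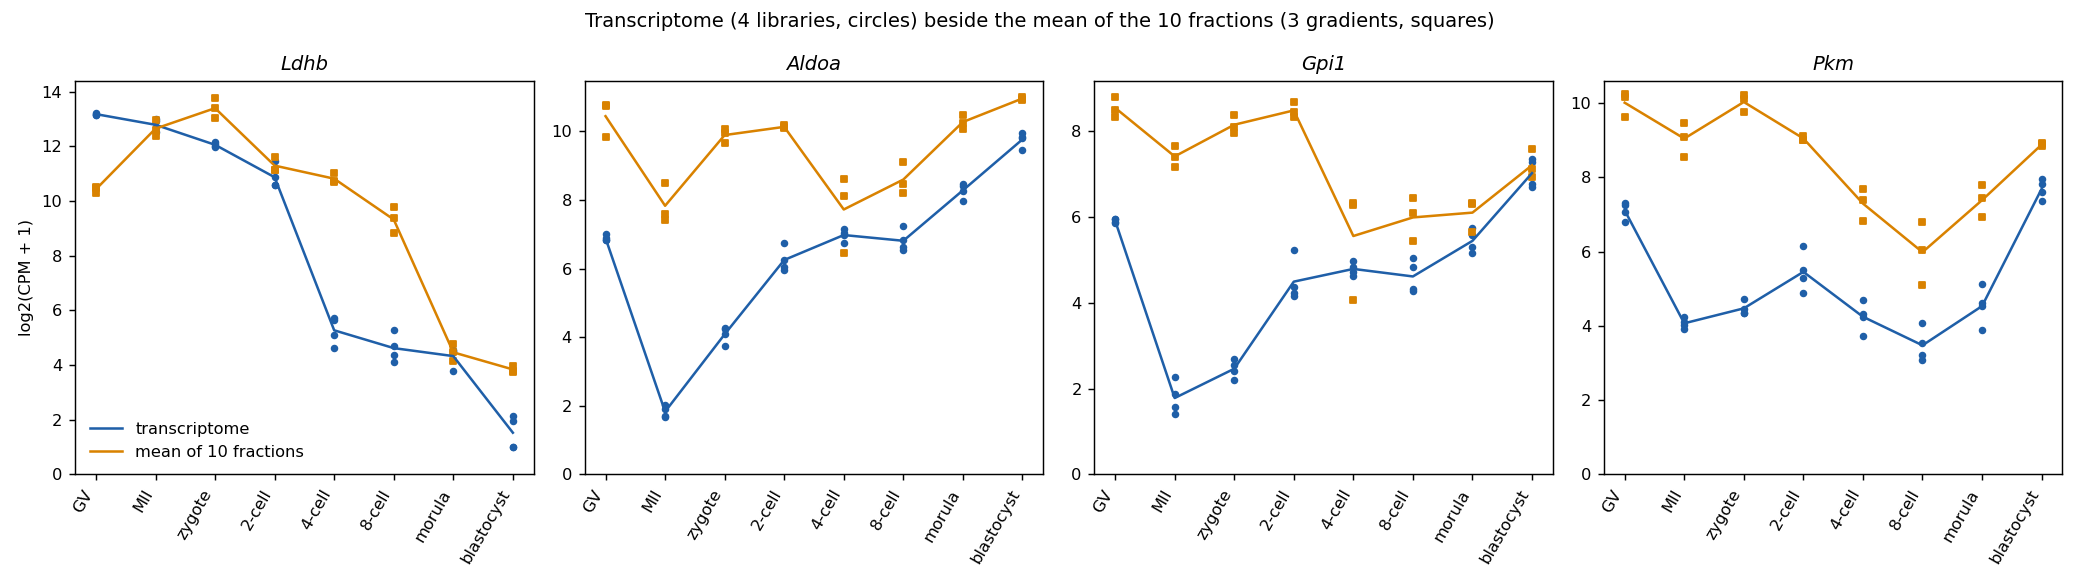
Level of Ldhb, Aldoa, Gpi1 and Pkm on the log2(CPM + 1) scale against stage, in the 4 transcriptomes (circles) and as the mean of 10 fractions in each of 3 gradients (squares), with lines through the means. Aldoa, Gpi1 and Pkm were far higher in the fractions in MII oocytes and zygotes than in the transcriptome, and Ldhb was lower in the fractions in GV oocytes and higher at the 4-cell stage.

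The neighbouring steps of the pathway were taken from a list of other glycolytic enzymes. Of 27 listed 22 were in the table and 20 were tested in the transcriptome. Between morula and blastocyst 10 were called higher and 2 lower, with a median change of 1.09, beside 18.8% and 7.97% of all genes. Between GV and MII 2 were called higher and 7 lower, beside 34.5% of all genes called and 25.3% lower. Tpi1, which interconverts the triose phosphates made by aldolase, held 92.7 ± 2.90 CPM in GV oocytes, 1.58 ± 0.903 CPM in MII oocytes and 112 ± 38.5 CPM in blastocysts (SD, n = 4). Eno1, the enolase one step before pyruvate kinase, stood at 48.1 ± 5.11 CPM in GV oocytes, 7.50 ± 2.54 CPM in MII oocytes and 198 ± 21 CPM in blastocysts. Gapdh held 3.45 ± 0.489 CPM in GV oocytes, 0.160 ± 0.0880 CPM at the 4-cell stage and 29.5 ± 3.46 CPM in blastocysts, very low values for a gene with many processed copies in the mouse genome. Pgam1, the mutase between Pgk1 and Eno1, stood at 11.3 ± 5.56 CPM at the 2-cell stage, 100.4 ± 19.6 CPM at the 4-cell stage and 94.4 ± 16.9 CPM in blastocysts. In blastocyst gradients 8 of the 22 enzymes were called higher in the heavy fractions and 1 lower, beside 7.24% and 10.1% of all genes.

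Upstream, glucose enters through the facilitative transporters. Slc2a3, a high-affinity glucose transporter, held 0.303 ± 0.393 CPM in zygotes, 11.6 ± 3.30 CPM at the 2-cell stage and 239 ± 53.4 CPM in blastocysts. Slc2a1 held 29.5 ± 6.17 CPM in GV oocytes, 0.553 ± 0.500 CPM at the 4-cell stage and 20.4 ± 6.78 CPM in blastocysts. Slc16a1, a carrier of lactate and pyruvate, held 24.9 ± 4.06 CPM in GV oocytes, 8.33 ± 3.97 CPM at the 8-cell stage and 41.1 ± 12.1 CPM in blastocysts. Of 9 transporters tested 4 were called higher from morula to blastocyst and 0 lower, beside 18.8% and 7.97% of all genes. Downstream, of 14 genes for the entry of pyruvate into mitochondria, 4 were called higher and 7 lower from 2-cell to 4-cell. At that step 64.8% of all genes were called and 32.9% were called lower. Between morula and blastocyst 1 was called higher and 2 lower, beside 18.8% and 7.97% of all genes. Pdha1, a subunit of pyruvate dehydrogenase, went from 25.2 ± 3.99 CPM at the 2-cell stage to 238 ± 10.8 CPM at the 4-cell stage, and Mpc1, a subunit of the mitochondrial pyruvate carrier, from 78.3 ± 25.7 CPM in morulae to 21.2 ± 9.15 CPM in blastocysts. Pdk1, a kinase that inhibits pyruvate dehydrogenase, held 11.9 ± 2.30 CPM at the 2-cell stage and 1.20 ± 0.766 CPM in blastocysts. Of 17 citric acid cycle genes, 1 was called higher and 10 lower from GV to MII, with a median change of -2.13. At that step 34.5% of all genes were called and 25.3% were called lower. Between morula and blastocyst 5 were called higher and 0 lower, beside 18.8% and 7.97% of all genes.

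Across the 32 transcriptomes the gene whose course was most like that of Ldhb was Nlrp14 (Pearson r = 0.997 on the log2(CPM + 1) scale). For Aldoa it was Glo1 (r = 0.979), for Gpi1 Eif2d (r = 0.975), for Ldha 2610318N02Rik (r = 0.934) and for Hk2 Gm32885 (r = 0.984). For Pfkp it was Derl3 (r = 0.915), for Pkm Fzr1 (r = 0.914), for Pfkl Dkkl1 (r = 0.910) and for Pgk1 Akip1 (r = 0.850). Among the members the lowest correlation was that of Hk2 and Ldhb, -0.946. All of these libraries share the 8 stages, so these values describe likeness of course only. Several members have processed copies elsewhere in the genome, and reads from a copy and its parent could be split by the authors' counting, so Ldha, Pgk1, Aldoa and Pkm levels carry that uncertainty. The named copies in the table were low: Aldoart1 reached 0.183 CPM, Aldoart2 1.45 CPM and Gpi-ps 0.920 CPM in any transcriptome.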

How the data were processed

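RNA-seq of 32 transcriptome and 240 gradient fraction libraries was used. The deposited values are CPM per gene. Per the submitters' processing notes, Trim Galore 0.6.7, FastQC, HISAT2 2.2.1, featureCounts 2.0.1 and edgeR were used on the GRCm39 build, with roles and settings not given in the sources used here. In 9 columns the deposited signal is on the same CPM-like scale but sums to more than CPM can, and 38 columns did so before 76 groups of identical rows (159 symbols) were reduced to 1 row each, leaving 15771. Whole reads could be recovered in 100% of values within 0.05 of a read, and served for depths (transcriptome median 17.6 M reads, fraction median 18.6 M). Replicates were compared over 288 pairs, and none agreed within counting noise (lowest chi-square per degree of freedom 2.55).

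Genes reaching 1 CPM in a number of samples no smaller than the smallest group were tested with limma 3.58.1 (trend, R 4.3.3) on log2(CPM + 1), fitted over all stages, separately for transcriptomes, heavy means (fractions 6 to 10), heavy against light means (fractions 1 to 5), and heavy against transcriptome. Gradient fits carried weights per stage, because the 2-cell and 4-cell gradients varied most. Called means an adjusted p under 0.05 and a change of at least 1. Isozyme ratios were tested with exact permutation tests (scipy 1.17.1). Scripts were tested on simulated data. The alternatives were a pseudocount of 0.1, no filter, quantile normalization, only the groups compared, no weights, other fraction ranges, a replicate block, leaving out each replicate, and edgeR 4.0.16 on recovered reads. edgeR was run for the transcriptomes and the heavy fractions only, and there it left out fraction 7 of 2-cell gradient B. The members and lists were chosen with earlier results of these data known. Genes named beside the members are 10 next steps of the pathway named in the design and, for each member, the gene with the highest Pearson r over the 32 transcriptomes among genes with a mean of at least 10 CPM. That of Hk1 is not reported here. The 2-cell transcriptome columns carry letters E to H, which the labels do not pair with samples, so they were used as replicates without a number. Heavy and light means of 1 gradient come from the same gradient and are paired (r of their deviations above 0.1 in 14 of 24 pairs, lowest 0.0071). The fit reported leaves this pairing out, and the fit with the gradient as a block is an alternative. Between consecutive stages, samples of the same letter had r above 0.1 in 2 of 21 pairs of heavy means and 4 of 20 pairs of transcriptomes, so letters were not taken to pair samples across stages.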

Additional observations from a re-analysis of the deposited data

Results flagged for a closer look

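In 6 of 77 sets of 4 transcriptomes, 1 library was flagged as apart from the other 3, where chance gives about 1 in 20 such sets. These were Gpi1 in 2-cell embryos (highest 36.5 CPM), Pfkl in morulae (highest 8.1 CPM) and Pfkp in MII oocytes (highest 6.97 CPM). Also flagged were Pgk1 in zygotes (lowest 34.7 CPM), and Ldhb in GV oocytes (highest 9599 CPM) and morulae (lowest 12.6 CPM). Some of these distances were small, as Pgk1 in zygotes ranged up to 36.3 CPM and Ldhb in GV oocytes down to 9192 CPM.

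The difference between heavy and light fractions was tested between blastocysts and GV oocytes and differed for Aldoa (3.26), Pfkl (2.96), Pkm (1.97), Gpi1 (1.61), Hk2 (-1.61) and Ldhb (-2.70), on the log2(CPM + 1) scale by limma. The change in the heavy fractions differed from that in the transcriptome from GV to MII for Ldhb (2.82), Aldoa (2.79), Gpi1 (2.51) and Pkm (1.94), from 8-cell to morula for Ldhb (-4.99), and from morula to blastocyst for Ldhb (2.54), Hk2 (-1.80) and Pkm (-1.55).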

How the results depend on the processing

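No member's called change turned its direction under any alternative run. The numbers of members called (as reported first) that differed by more than 1.5 times are given here. In the transcriptome, smaller differences included GV to MII 4 against 6 with quantile normalization or edgeR, 8-cell to morula 3 against 2 with quantile normalization, morula to blastocyst 8 against 6 with either, GV to blastocyst 8 against 7 with edgeR and zygote to blastocyst 9 against 8 with quantile normalization, while MII to zygote 1 became 2 with edgeR and zygote to 2-cell 7 became 4 with quantile normalization. In the heavy fractions, GV to MII 5 became 2 without weights or with edgeR, MII to zygote 1 became 0 with both, zygote to 2-cell 0 became 1 with quantile normalization, 1 without weights and 3 with edgeR, 2-cell to 4-cell 3 became 7 without weights and 5 with edgeR, 4-cell to 8-cell 0 became 1 without weights and 2 with edgeR, and morula to blastocyst 4 became 1 with a pseudocount of 0.1 or fractions 7 to 10, 2 with quantile normalization, and 0 without weights or with edgeR. Between heavy and light fractions, GV 1 became 2 with only the groups compared or with light fractions 2 to 5, MII 3 and zygote 3 each became 1 without weights, 2-cell 0 became 2 with only the groups compared, 2 without weights and 1 with fractions 7 to 10 against 1 to 4, 4-cell 0 became 2 without weights, morula 2 became 1 with quantile normalization, no weights, fractions 7 to 10 against 1 to 4 or light fractions 2 to 5, blastocyst 7 became 4 with a pseudocount of 0.1, 2 without weights and 4 with light fractions 2 to 5, and the difference between blastocyst and GV 6 became 3 with a pseudocount of 0.1 and 2 without weights. For the heavy fractions against the transcriptome, zygote to 2-cell 0 became 2 without weights and 1 with fractions 7 to 10, 2-cell to 4-cell 0 became 2 with quantile normalization, 1 with only the groups compared and 6 without weights, 4-cell to 8-cell 0 became 4 and 8-cell to morula 1 became 2 without weights, and morula to blastocyst 3 became 1 with a pseudocount of 0.1. The cause of these moves was not tested.

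Leaving out 1 replicate at a time gave, in the transcriptome, 1 to 2 members from MII to zygote and 1 to 2 from 4-cell to 8-cell. In the heavy fractions it gave 2 to 5 from GV to MII, 0 to 1 from zygote to 2-cell, 0 to 1 from 2-cell to 4-cell, 2 to 3 from 8-cell to morula and 1 to 1 from morula to blastocyst. Between heavy and light fractions it gave 0 to 1 at the 8-cell stage, 1 to 2 in morulae, 4 to 6 in blastocysts and 3 to 4 for the difference between blastocyst and GV. For the heavy fractions against the transcriptome it gave 0 to 2 from 2-cell to 4-cell and 1 to 3 from morula to blastocyst. With a replicate block the number called from GV to MII in the transcriptome was 4, as without it, and the block changed no other call where it was run. For the transcriptome, and for the heavy fractions against it, the block was not run on the steps to and from the 2-cell stage. The 2-cell and 4-cell gradients carried the lowest weights, so differences there had to be larger to be called.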
